A study of Mus musculus with 2 samples.

Results

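Transcripts of 35 genes that make hemoglobin, build the red blood cell or synthesise heme were described in mouse embryonic fibroblasts (MEFs), cells grown from the body of the embryo. The genes were chosen by symbol from a list, and 32 of the 35 had a row among the 17260 genes of the deposited count table. Hba-x, Hbb-bh1 and Ahsp had no row and are not analysed here. There was 1 library from C57BL/6 fibroblasts labelled Ahi1-/- and 1 from C57BL/6 fibroblasts labelled WT, both from embryos at day 13.5 and cultured in DMEM with 10% FBS. How the Ahi1 allele was made, how many embryos were pooled and how long the cells were grown are not stated in the labels. The table heads its columns EXP and CON, which were read as the Ahi1-/- and the WT library, and every direction below rests on that reading.

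Red blood cells carry oxygen on hemoglobin, a tetramer of alpha and beta globin chains that each hold a heme. In the embryo, primitive red cells express embryonic globins, and the fetal liver then makes definitive red cells with adult globins. Heme itself is made in all cells by a chain of enzymes that starts and ends in mitochondria, so its genes are expressed in fibroblasts too, except for the red cell form of the first enzyme, Alas2. The 35 genes were therefore split into 21 that are known chiefly from red cells and their precursors, called erythroid-only here, and 14 that other cells also use. Ank1 and Myb were placed among the erythroid-only genes although muscle uses Ank1 and other blood progenitors use Myb.

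The library labelled Ahi1-/- held 20820756 expected counts and the WT library 19067504. Ahi1 itself had 370 counts in the library labelled Ahi1-/- and 410 in WT (log2 ratio -0.16, 95% interval -0.37 to 0.05), so its level does not check the labels, and the first library is named by its label throughout. With 1 library per genotype there was no replicate, no test and no p-value. The intervals below are exact 95% intervals for counting error only and do not cover differences between cultures. Ratios are of counts scaled to the library, in the library labelled Ahi1-/- over WT. All 13 fibroblast markers examined had counts in both libraries, but their levels were not matched. By the 2-fold rule defined below, 8 of these markers were higher and 1 was lower. Together they reached 47080 CPM in the library labelled Ahi1-/- and 14766 CPM in WT. Vimentin (Vim) was close to equal, at 4710 TPM in the library labelled Ahi1-/- and 4546 TPM in WT. Levels are given as deposited TPM, which corrects for transcript length, or as CPM, which does not.

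The adult globin genes come in several copies, and the coding sequences of the near-identical pairs below show why counts of single copies are uncertain. The sequences of Hbb-b1 and Hbb-b2 were not compared. In the GENCODE M21 annotation the coding sequences of Hba-a1 and Hba-a2 (chromosome 11) are 429 bases long and differ at 1 base, C381T, counted from the A of the start codon with the Hba-a1 base first. Those of Hbb-bs and Hbb-bt (chromosome 7) are 444 bases long and also differ at 1 base, C417T, with the Hbb-bs base first. The stretches around these bases are shown, with the differing base in capitals, because reads that do not reach it or the untranslated ends fit both copies equally well.
Hba-a1: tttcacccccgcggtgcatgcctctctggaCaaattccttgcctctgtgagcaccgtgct
Hba-a2: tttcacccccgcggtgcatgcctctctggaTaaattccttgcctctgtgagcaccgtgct
Hbb-bs: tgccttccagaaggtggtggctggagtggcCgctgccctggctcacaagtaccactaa
Hbb-bt: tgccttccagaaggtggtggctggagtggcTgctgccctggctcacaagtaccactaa
The longest stretch of identical coding sequence is 380 bases for the alpha pair and 416 bases for the beta pair.

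Summed over copies, adult globin transcripts were far lower in the library labelled Ahi1-/- than in WT. The 2 alpha copies together had 78 counts in the library labelled Ahi1-/- and 5409 in WT, which is 70.0-fold lower (interval 56.0 to 88.7). The 4 beta copies together had 36 counts in the library labelled Ahi1-/- and 3685 in WT, which is 103-fold lower (interval 74.5 to 148). These intervals for alpha and beta overlap. All 6 adult globins had 5.48 CPM of the unscaled total in the library labelled Ahi1-/- (interval 4.52 to 6.58) and 477 CPM in WT (interval 467 to 487). Even in WT this was 0.0477% of the counts. In a bulk library, fewer cells of a type and less RNA per cell cannot be told apart.

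Per length, the summed alpha level was 16.7 TPM in the library labelled Ahi1-/- and 1132 TPM in WT. The summed beta level was 6.73 TPM in the library labelled Ahi1-/- and 674 TPM in WT. Alpha therefore exceeded beta in both libraries, 2.48 times in the library labelled Ahi1-/- and 1.68 times in WT, though the first value rests on 36 beta counts.

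Each adult copy on its own was 30.9-fold lower or further apart. Hba-a1, which took most of the alpha counts, had 78 counts in the library labelled Ahi1-/- and 5284 in WT, or 16.7 and 1106 TPM (log2 ratio -6.09, interval -6.44 to -5.77). Hba-a2 had 0 counts in the library labelled Ahi1-/- and 125 in WT. With the 0 set to a floor of 3 counts it was 42-fold lower (log2 ratio -5.39), and its interval reached up to -5.07. Among the beta copies, Hbb-b1 was at 1.67 TPM in the library labelled Ahi1-/- and 367 TPM in WT (log2 ratio -7.81, interval -8.94 to -6.88). Hbb-bs was at 2.69 TPM in the library labelled Ahi1-/- and 187 TPM in WT (log2 ratio -6.12, interval -6.96 to -5.39). The least different copy, Hbb-bt, was at 0.97 TPM in the library labelled Ahi1-/- and 28.1 TPM in WT (log2 ratio -4.95, interval -6.59 to -3.69). Hbb-b2 lay between them with 7 counts in the library labelled Ahi1-/- and 500 in WT. The interval of Hbb-b1 does not overlap that of Hbb-bt, so the copies differed among themselves as counted, but the sums above do not depend on how reads were divided.

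The division among copies was uneven in both libraries. Hba-a1 took all 78 alpha counts in the library labelled Ahi1-/- (exact binomial interval 95.4 to 100%) and 97.7% of 5409 in WT (97.3 to 98.1%). Hbb-b1 and Hbb-b2 together took 44.4% of 36 beta counts in the library labelled Ahi1-/- (27.9 to 61.9%) and 67.8% of 3685 in WT (66.3 to 69.3%). As background, Hbb-bs and Hbb-bt are the adult beta genes of the haplotype that C57BL/6 mice carry, and Hbb-b1 and Hbb-b2 are the pair of the other common haplotype. What the division reflects was not tested.

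**Figure D1:**
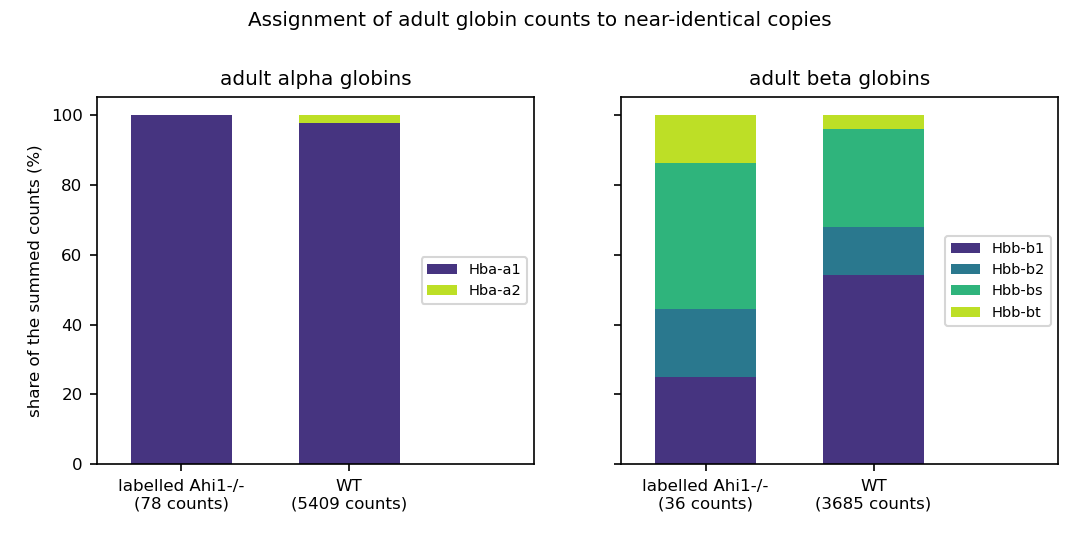
Stacked bars give the share of the summed adult alpha counts (left) and adult beta counts (right) assigned to each copy, in percent, for the library labelled Ahi1-/- and for WT, with the summed counts under each bar. Hba-a1 takes 100% of the alpha counts in the library labelled Ahi1-/- and 97.7% in WT, and Hbb-b1 with Hbb-b2 takes 44.4% of the beta counts in the library labelled Ahi1-/- and 67.8% in WT.

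The embryonic globins gave almost no signal. Hbb-y, an embryonic beta-like chain of primitive red cells, had 0 counts in the library labelled Ahi1-/- and 1 in WT, or 0 and 0.19 TPM. Both values lie under the floor of 3 counts, so no fold is given. In WT the adult beta copies at 674 TPM stood against 0.19 TPM for Hbb-y.

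Among the other red cell genes, Alas2 and Slc4a1 were about as far apart as the globins. Alas2, the red cell form of the first enzyme of heme synthesis, had 3 counts in the library labelled Ahi1-/- and 209 in WT, or 0.17 and 11.6 TPM (log2 ratio -6.14, interval -8.42 to -4.57). Slc4a1, the anion exchanger band 3 of the red cell membrane, had 5 counts in the library labelled Ahi1-/- and 313 in WT, or 0.12 and 7.42 TPM (log2 ratio -5.98, interval -7.61 to -4.74). Both intervals overlap that of the summed alpha copies, -6.47 to -5.81.

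Other membrane genes were lower by less. Epb42, which encodes the membrane skeleton protein 4.2, had 8 counts in the library labelled Ahi1-/- and 25 in WT (log2 ratio -1.66, interval -3.02 to -0.46). Rhag, the Rh-associated glycoprotein, had 6 counts in the library labelled Ahi1-/- and 27 in WT (log2 ratio -2.18, interval -3.75 to -0.88). Ermap, a red cell adhesion protein, had 10 counts in the library labelled Ahi1-/- and 32 in WT (log2 ratio -1.69, interval -2.88 to -0.63). The intervals of all 3 lie wholly above those of Alas2 and Slc4a1, so within the membrane and enzyme genes the libraries did not differ by a common factor. Ank1, which encodes ankyrin 1 and links the skeleton to the membrane, had 98 counts in the library labelled Ahi1-/- and 199 in WT, or 1.27 and 2.57 TPM (log2 ratio -1.03, interval -1.40 to -0.68). It was the member just past 2-fold, and fell short of it with upper quartile scaling (-0.98) or with the median of chromosome 8 subtracted (-0.68). Blvrb at a log2 ratio of -0.91 was the member just short of 2-fold. Trim10 had 2 counts in the library labelled Ahi1-/- and 6 in WT, and a difference was not detectable at this depth (interval -4.94 to 0.89).

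The transcription factors of the lineage were low in WT and lower in the library labelled Ahi1-/-. Klf1, an activator of the adult beta globin gene, had 2 counts in the library labelled Ahi1-/- and 38 in WT, or 0.15 and 2.84 TPM (log2 ratio -4.26, interval -7.36 to -2.31). Tal1, a basic helix-loop-helix factor of blood formation, had 2 counts in the library labelled Ahi1-/- and 33 in WT (log2 ratio -4.06, interval -7.16 to -2.09). Gata1, the main GATA factor of red cell precursors, had 0 counts in the library labelled Ahi1-/- and 10 in WT. With the 0 set to the floor of 3 counts it was 3.36-fold lower (log2 ratio -1.75), and its interval reached up to -1.18. Myb, a factor of proliferating progenitors, had 8 counts in the library labelled Ahi1-/- and 41 in WT (log2 ratio -2.37, interval -3.67 to -1.26). All 4 were under 3 TPM in WT.

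Counted by a common rule, 9 of the 21 erythroid-only genes were lower and 0 were higher, where lower or higher means a 2-fold difference or more and 50 counts or more in 1 of the libraries. Among all 12075 genes with that many counts, 10.3% were lower in this sense. Of the other erythroid-only genes, 9 had fewer than 50 counts in each library and 3 had no row. Moreover, 7 of the 9 reached the minimum in WT alone and could only be lower, so this count describes the values above and is no support for them. The counting interval lay wholly below 0 for 16 of the 18 genes with a row, and held 0 for Trim10 and Hbb-y. Among all 17260 genes with a row, 32.4% had such an interval.

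**Figure D2:**
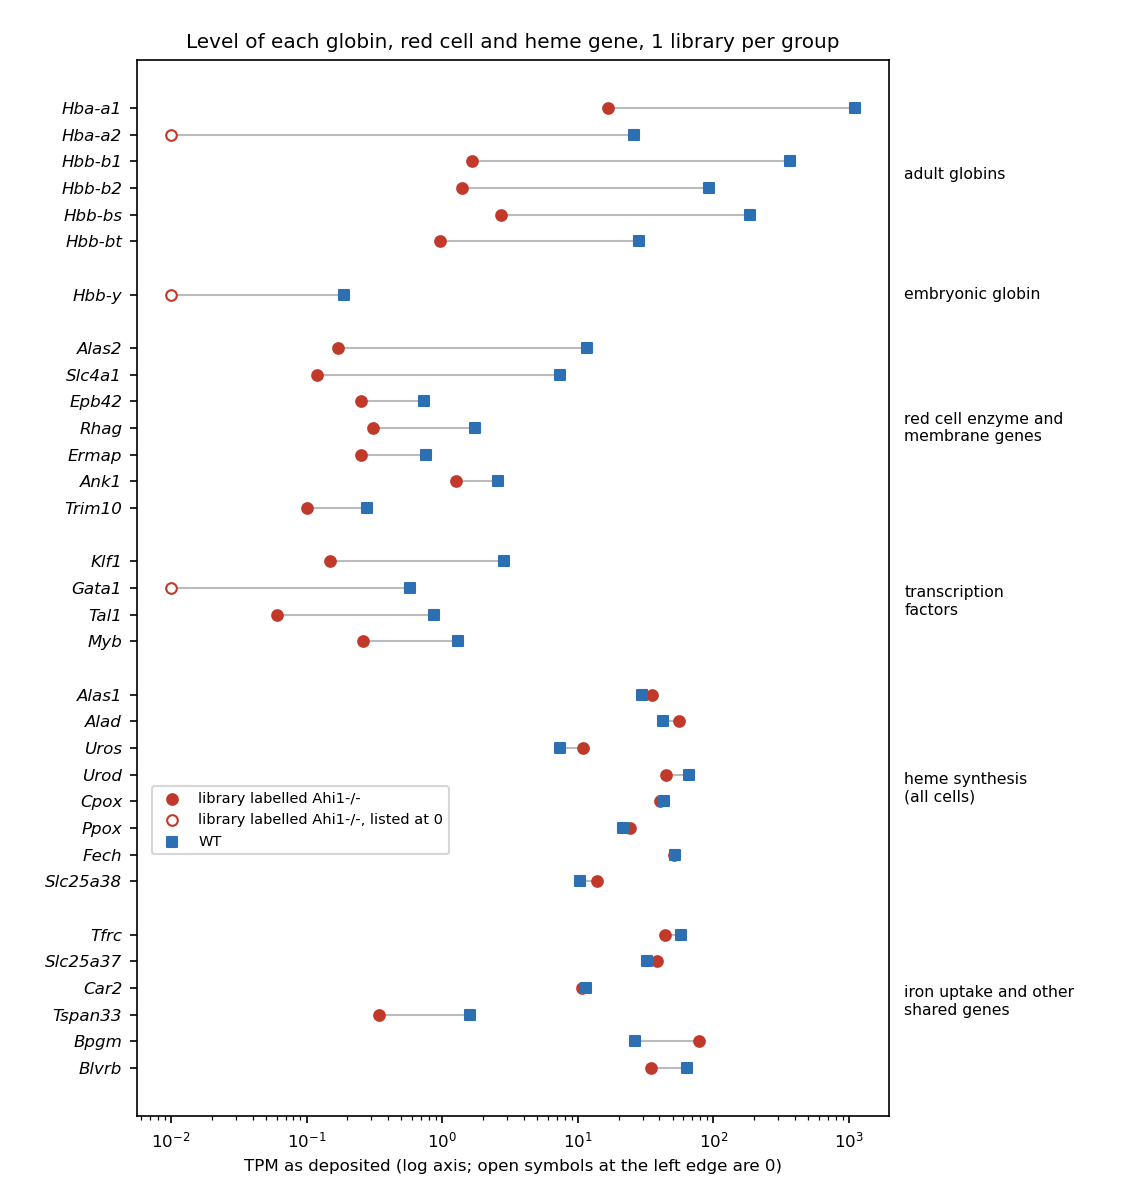
Each row is a gene with its deposited TPM on a log axis in the library labelled Ahi1-/- (circles) and in WT (squares), grouped by role, with open symbols for a value of 0. The erythroid-only genes are spread apart, as for Hba-a1 at 16.7 TPM in the library labelled Ahi1-/- and 1106 TPM in WT, while the heme synthesis genes of all cells lie close together, as for Fech at 50.8 TPM in the library labelled Ahi1-/- and 52.4 TPM in WT.

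The heme synthesis genes shared by all cells were close to equal in both libraries, and 0 of 8 were 2-fold apart. Among all genes with enough counts 16.0% were higher and 10.3% lower, so most genes were not 2-fold apart either. Alas1, the form of the first enzyme found in all tissues, had 860 counts in the library labelled Ahi1-/- and 737 in WT, or 35.4 and 29.6 TPM (log2 ratio 0.21, interval 0.07 to 0.35). It was thus at similar levels where Alas2, which catalyses the same step, was 70.3-fold lower. Alad, which joins the products of that step to porphobilinogen, was at 55.9 TPM in the library labelled Ahi1-/- and 42.1 TPM in WT (log2 ratio 0.39, interval 0.23 to 0.56). Uros, which closes the porphyrin ring, and Urod, which then decarboxylates it, lay on opposite sides of 0. Uros was at 11 TPM in the library labelled Ahi1-/- and 7.33 TPM in WT (log2 ratio 0.49, interval 0.12 to 0.85). Urod was at 44.4 TPM in the library labelled Ahi1-/- and 66.5 TPM in WT (log2 ratio -0.62, interval -0.79 to -0.46).

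The last steps were nearer still to equality. Cpox, coproporphyrinogen oxidase, had 1151 counts in the library labelled Ahi1-/- and 1272 in WT (log2 ratio -0.16, interval -0.27 to -0.04). The intervals of Ppox (0.13, -0.08 to 0.34) and of Fech (-0.09, -0.20 to 0.02), the ferrochelatase that inserts the iron, held a log2 ratio of 0. Slc25a38, which carries glycine into mitochondria for the first step, had 326 counts in the library labelled Ahi1-/- and 261 in WT (log2 ratio 0.31, interval 0.07 to 0.55). The median log2 ratio of the 8 genes was 0.17, beside -0.01 over all 14485 genes with at least 10 counts in both libraries together, and only Urod lay outside the interquartile range of all those genes, -0.52 to 0.67.

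Among iron uptake genes and red cell enriched genes that other cells also use, the members went in different directions. Tfrc, the transferrin receptor, had 1951 counts in the library labelled Ahi1-/- and 2628 in WT (log2 ratio -0.44, interval -0.53 to -0.36). Slc25a37, the iron carrier mitoferrin 1 that red cell precursors express strongly, had 1540 counts in the library labelled Ahi1-/- and 1328 in WT (log2 ratio 0.20, interval 0.09 to 0.31). Car2, a carbonic anhydrase, was at 10.8 TPM in the library labelled Ahi1-/- and 11.5 TPM in WT, and its interval held 0. Blvrb, a biliverdin reductase, was at 34.7 TPM in the library labelled Ahi1-/- and 63.7 TPM in WT (log2 ratio -0.91, interval -1.14 to -0.69), and passed 2-fold with total counts (-1.03) or with the median of chromosome 7 subtracted (-1.16). Tspan33, a tetraspanin of red cell precursors, had 6 counts in the library labelled Ahi1-/- and 29 in WT (log2 ratio -2.29, interval -3.84 to -0.99), which is nearer to Rhag and Myb than to the rest of its group.

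Bpgm was the only one of the 32 genes with a row that was higher by this rule, beside 16.0% of the 12075 genes with enough counts. It encodes the mutase that makes 2,3-bisphosphoglycerate, the compound that lowers the oxygen affinity of hemoglobin. It had 1043 counts in the library labelled Ahi1-/- and 378 in WT, or 77.6 and 26.4 TPM, which is 2.73-fold higher (log2 ratio 1.45, interval 1.28 to 1.62). Of the 14 genes that other cells also use, 13 had enough counts for the rule. Of these 1 was higher and 0 were lower, beside 16.0% higher and 10.3% lower among all genes. Tspan33, at a log2 ratio of -2.29, had too few counts for the rule. The median log2 ratio of the 14 genes was 0.02, and lay between -0.10 and 0.07 under 4 scalings of library size. The median of the 16 erythroid-only genes with at least 10 counts, with Hba-a2 and Gata1 at the floor of 3 counts, was -4.60. It was -4.72 to -4.55 under the same scalings. Of these 16 genes 6 are globin copies, and the median was -3.21 with the copies summed, -2.28 without globins and -6.09 over genes with at least 100 counts.

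**Figure D3:**
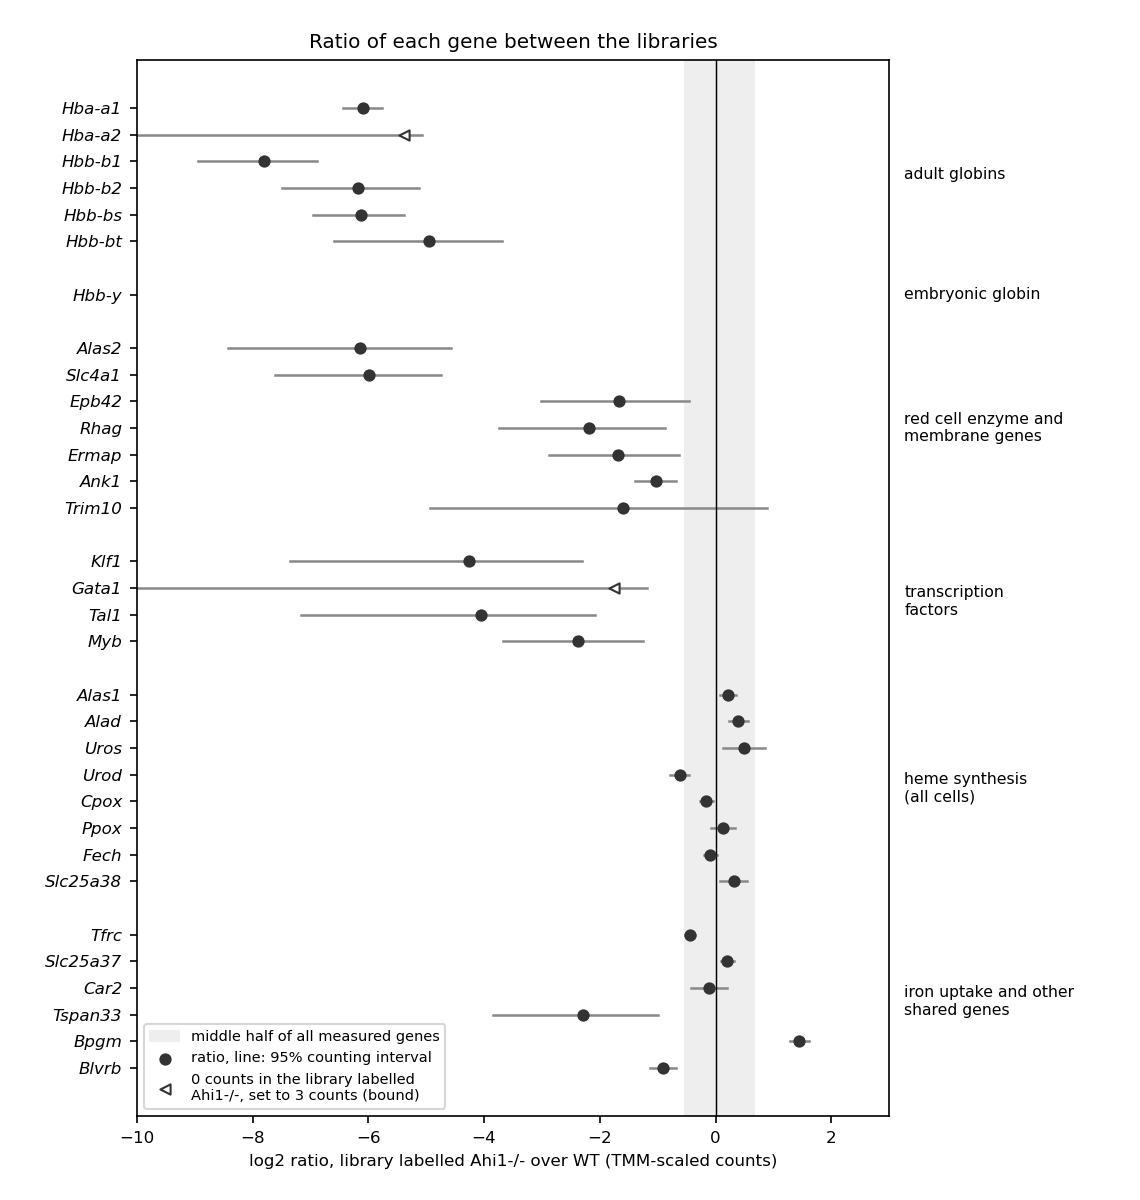
Points give the log2 ratio of each gene, library labelled Ahi1-/- over WT, with lines for 95% counting intervals, open triangles for genes at 0 set to 3 counts, and a grey band for the interquartile range of all measured genes (-0.52 to 0.67). Adult globins, Alas2 and Slc4a1 lie at -4.95 or below, heme synthesis genes lie between -0.62 and 0.49, and Hbb-y has no ratio.

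Because Gata1 and Klf1 are themselves members, promoters of Hba-a1, Hbb-bs, Alas2 and Alas1 were picked as examples and are shown. Hba-a1, Hbb-bs and Alas2 were lower by the rule, and Alas1 had a log2 ratio of 0.21. The promoters run from 250 bases before to 50 bases after the annotated start, from RefSeq on GRCm38.p6, while the submitters' notes name mm8. Capitals mark matches on either strand to the GATA words, which are AGATA or TGATA followed by A or G, or to the KLF word CCNCNCCC, where neighbouring KLF matches can overlap.
Hba-a1 promoter (chr11:32283422-32283721, + strand): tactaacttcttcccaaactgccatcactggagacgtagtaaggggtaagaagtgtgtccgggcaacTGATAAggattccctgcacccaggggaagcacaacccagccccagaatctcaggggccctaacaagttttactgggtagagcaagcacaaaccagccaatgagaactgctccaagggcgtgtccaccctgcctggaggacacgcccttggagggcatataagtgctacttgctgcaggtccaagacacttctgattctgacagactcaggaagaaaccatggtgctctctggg
Hbb-bs promoter (chr7:103827879-103828178, - strand): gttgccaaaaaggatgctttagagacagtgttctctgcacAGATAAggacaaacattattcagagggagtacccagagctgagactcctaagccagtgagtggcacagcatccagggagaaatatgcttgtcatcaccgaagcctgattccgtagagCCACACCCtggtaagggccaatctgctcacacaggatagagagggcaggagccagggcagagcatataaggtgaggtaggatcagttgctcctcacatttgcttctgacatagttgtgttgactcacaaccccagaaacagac
Alas2 promoter (chrX:150547167-150547466, + strand): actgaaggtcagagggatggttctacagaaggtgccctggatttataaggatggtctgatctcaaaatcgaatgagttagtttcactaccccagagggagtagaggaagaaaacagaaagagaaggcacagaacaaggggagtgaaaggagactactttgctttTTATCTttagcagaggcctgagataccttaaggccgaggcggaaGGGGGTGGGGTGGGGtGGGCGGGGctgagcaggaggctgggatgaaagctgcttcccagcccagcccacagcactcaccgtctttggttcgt
Alas1 promoter (chr9:106247905-106248204, - strand): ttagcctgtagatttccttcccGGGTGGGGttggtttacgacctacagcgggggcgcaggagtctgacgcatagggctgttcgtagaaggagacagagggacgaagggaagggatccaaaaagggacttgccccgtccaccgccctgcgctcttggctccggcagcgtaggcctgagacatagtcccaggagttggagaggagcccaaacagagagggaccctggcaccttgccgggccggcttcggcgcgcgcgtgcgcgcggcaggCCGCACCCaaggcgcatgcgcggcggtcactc
The Hba-a2 promoter shares an unbroken run of 297 bases with that of Hba-a1. Hba-a1 held 1 GATA word and no KLF word, Hbb-bs held 1 of each, and Alas2 held 1 GATA word and 4 overlapping or adjoining KLF matches. Alas1 held 2 KLF words and no GATA word in the window shown.

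Promoter entries were found for 26 of the 35 genes, 15 erythroid-only and 11 also used by other cells. The 15 include Hba-x, which had no row of counts. A GATA word stood in at least 1 listed promoter of 12 of the 15 and of 3 of the 11 genes, beside 33.0% of all 27025 genes in the table. A KLF word stood in 7 of the 15 and in all 11, beside 51.9% of all genes. These matches describe letters in a window and do not show binding.

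Red cell genes beyond the members were described from a second list of 20 genes. By the same rule 4 of these were lower and 0 were higher, beside 10.3% lower and 16.0% higher among all genes. Of the rest, 11 had fewer counts and 1 had no row. The median log2 ratio was -2.66 over genes with at least 10 counts, but -1.01 with at least 1 count and -0.49 with at least 100. Add2, the beta subunit of the skeleton protein adducin, had 3 counts in the library labelled Ahi1-/- and 141 in WT (log2 ratio -5.57, interval -7.86 to -3.99). Sptb, a spectrin chain of the membrane skeleton, had 20 counts in the library labelled Ahi1-/- and 137 in WT (log2 ratio -2.79, interval -3.54 to -2.11). The erythropoietin receptor gene Epor was also lower, with 12 counts in the library labelled Ahi1-/- and 75 in WT.

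Of 18 genes that handle heme after its synthesis or complete the pathway, 17 had enough counts for the rule. Of these 3 were higher and 1 was lower, beside 16.0% higher and 10.3% lower among all genes, with a median log2 ratio of 0.18. Hebp2, a heme-binding protein, had 215 counts in the library labelled Ahi1-/- and 50 in WT (log2 ratio 2.09, interval 1.64 to 2.57). Flvcr2, a membrane transporter of the same family as the heme exporter Flvcr1, had 90 counts in the library labelled Ahi1-/- and 29 in WT (log2 ratio 1.62). Abcg2, an efflux pump that also moves porphyrins, had 797 counts in the library labelled Ahi1-/- and 263 in WT (log2 ratio 1.59).

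Of 22 iron handling genes, 19 had enough counts, and of these 0 were higher and 4 lower, beside the same 16.0% and 10.3% among all genes. The list had a median log2 ratio of -0.11. Slc25a28, the mitoferrin 2 used outside the red cell lineage, had 350 counts in the library labelled Ahi1-/- and 1254 in WT (log2 ratio -1.85, interval -2.03 to -1.68). It lies on chromosome 19, where the median log2 ratio over 487 genes was -0.62. Slc40a1, the iron exporter ferroportin, on chromosome 1, had 54 counts in the library labelled Ahi1-/- and 166 in WT (log2 ratio -1.63). Pcbp2, an RNA-binding protein that also chaperones iron, had 9955 counts in the library labelled Ahi1-/- and 24729 in WT (log2 ratio -1.33). Of 14 globin switching factors and red cell cofactors, 9 had enough counts, and of these 3 were higher and 1 was lower, beside the same shares of all genes. Bcl11a, which silences embryonic globin genes, had 84 counts in the library labelled Ahi1-/- and 25 in WT (log2 ratio 1.74), Gata2 had 283 in the library labelled Ahi1-/- and 91 in WT (1.62), and Zfpm1, the GATA1 partner FOG1, had 711 in the library labelled Ahi1-/- and 289 in WT (1.29). The lower factor was Ldb1, on chromosome 19, with 3637 counts in the library labelled Ahi1-/- and 7461 in WT, and it no longer met the rule with upper quartile scaling, deposited TPM or chromosome medians subtracted.

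Markers of other cell types that a culture from an embryo could hold were measured beside the globins. Of 15 leukocyte and macrophage markers, 7 had enough counts for the rule. Of these 1 was higher and 4 were lower, beside 16.0% higher and 10.3% lower among all genes. Of the 15 markers 0 were at 0 in either library. Their summed level was 35.7 CPM in the library labelled Ahi1-/- and 47.4 CPM in WT. These sums mix opposite directions. Lyz2 alone gave 15.7 CPM in the library labelled Ahi1-/- and 4.84 CPM in WT, while Mpo gave 0.2 CPM in the library labelled Ahi1-/- and 8.37 CPM in WT. Mpo, the myeloperoxidase of granulocyte precursors, had 4 counts in the library labelled Ahi1-/- and 166 in WT (log2 ratio -5.39, interval -7.28 to -4.00). Coro1a, an actin regulator of leukocytes, had 11 counts in the library labelled Ahi1-/- and 136 in WT (log2 ratio -3.64), whereas the macrophage lysozyme Lyz2 had 315 in the library labelled Ahi1-/- and 96 in WT (log2 ratio 1.70). Among markers under 50 counts, values lay on both sides. The pan-leukocyte marker Ptprc had 10 counts in the library labelled Ahi1-/- and 23 in WT, while the macrophage markers Adgre1 and Itgam each had 39 counts in the library labelled Ahi1-/-, against 4 for Adgre1 and 12 for Itgam in WT. With a minimum of 10 counts, 3 leukocyte markers were higher and 6 were lower. Over all genes 2741 were higher and 1647 lower at that minimum, for which no share is given.

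Of 8 megakaryocyte and platelet markers, 3 had enough counts. Of these 1 was higher and 0 were lower, beside 16.0% higher and 10.3% lower among all genes. The summed level of the 8 was 31.2 CPM in the library labelled Ahi1-/- and 19.3 CPM in WT. The higher one was the chemokine Ppbp, with 367 counts in the library labelled Ahi1-/- and 15 in WT, and without it the sum was 12.8 CPM in the library labelled Ahi1-/- and 18.5 CPM in WT. Of the 5 markers with at least 10 counts, 4 had a log2 ratio below 0, and the median was -0.49. Itga2b, the integrin chain CD41, had 47 counts in the library labelled Ahi1-/- and 93 in WT and met the rule as lower with total counts or chromosome medians subtracted, and Treml1 had 0 counts in the library labelled Ahi1-/- and 1 in WT. Of 10 endothelial markers, only 1 had enough counts, and it was lower, beside 10.3% of all genes. This was Egfl7, with 117 counts in the library labelled Ahi1-/- and 236 in WT. Egfl7 no longer met the rule with upper quartile scaling, deposited TPM or chromosome medians subtracted. Under 50 counts, Tie1 had 0 counts in the library labelled Ahi1-/- and 20 in WT, while Erg had 31 in the library labelled Ahi1-/- and 13 in WT and Emcn had 8 in the library labelled Ahi1-/- and 1 in WT. The summed level of the 10 endothelial markers was 9.59 CPM in the library labelled Ahi1-/- and 16.4 CPM in WT. The hepatocyte markers, which would come with fetal liver, summed to 3.35 CPM in the library labelled Ahi1-/- and 2.62 CPM in WT over the 7 of 10 with a row, with Alb at 3 counts in the library labelled Ahi1-/- and 0 in WT and Afp at 0 in the library labelled Ahi1-/- and 2 in WT. Of the other hepatocyte markers, Trf had 37 counts in the library labelled Ahi1-/- and 33 in WT, and Apob had 13 in the library labelled Ahi1-/- and 12 in WT.

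Fibroblast markers went the opposite way to the globins. All 13 had enough counts, and 8 were higher by the rule and 1 lower (0 with chromosome medians subtracted). Among all genes 16.0% were higher and 10.3% lower. The summed level of the 13 was 47080 CPM in the library labelled Ahi1-/- and 14766 CPM in WT. Thy1 had 20631 counts in the library labelled Ahi1-/- and 258 in WT (log2 ratio 6.31), Lum had 3284 in the library labelled Ahi1-/- and 71 in WT (log2 ratio 5.52), and Pdgfra had 6265 in the library labelled Ahi1-/- and 795 in WT (log2 ratio 2.97). The part of blood, endothelial and fibroblast marker levels in the globin difference was not tested.

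**Figure D4:**
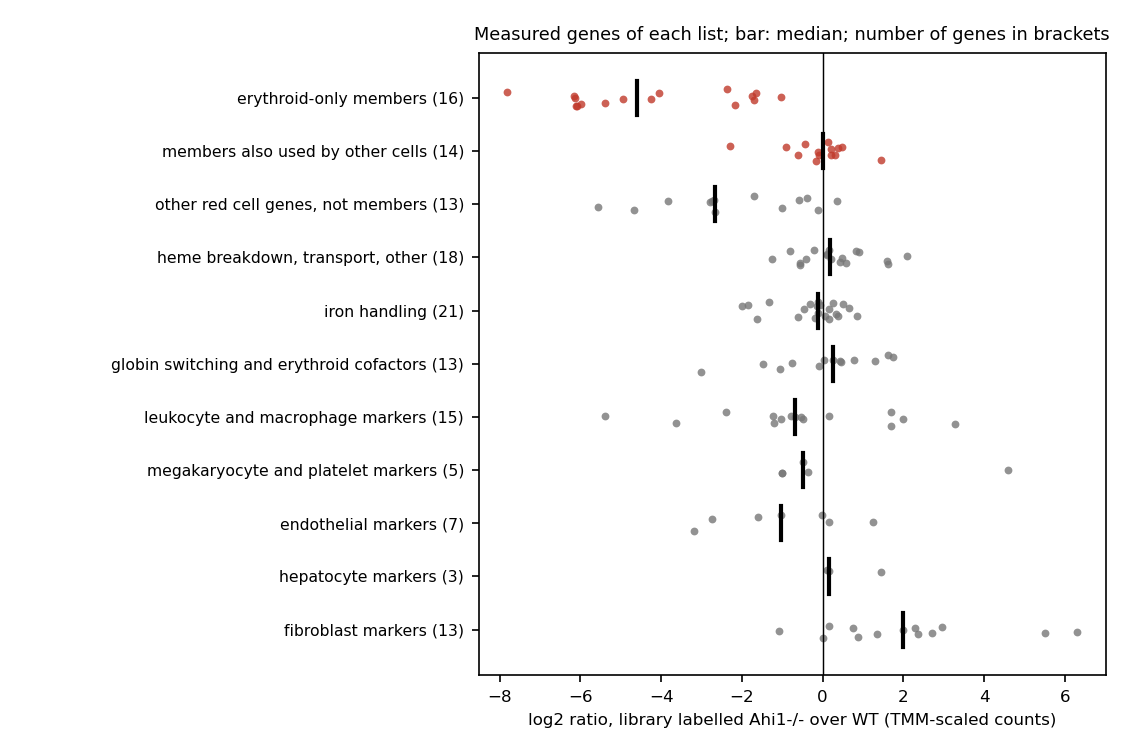
Points give the log2 ratio, library labelled Ahi1-/- over WT, of the genes of each list with at least 10 counts over both libraries, with a bar at the median, and red points for the members. The median is -4.60 for the erythroid-only genes, -2.66 for other red cell genes, 0.02 for the members also used by other cells and 1.98 for fibroblast markers.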

How the data were processed

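RNA sequencing of 1 library labelled Ahi1-/- and 1 WT library was used. The authors deposited expected counts and TPM for 17260 genes, and FPKM for 3872 genes, of which 17 are members, all per the file headers. In the deposited FPKM table no gene with values in both libraries had an absolute log2 ratio under 1.00. Per the submitters' processing notes, the build was mm8 and the tools were RSEM 1.2.12, HISAT2 2.0.4 and Bowtie2 2.2.5, with no roles stated. No source used here gives the annotation or whether counting used strand. The input was 6 value columns, with 0 unused.

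Expected counts were rounded and scaled with TMM in edgeR 4.0.16 (R 4.3.3), and CPM are relative to the scaled library size. Exact 95% Clopper-Pearson intervals were computed with scipy 1.17.1. A gene at 0 was set to a floor of 3 counts. Intervals and floors cover counting error only. A gene was counted as higher or lower from a 2-fold difference on, if either library had 50 counts or more. Medians take genes with at least 10 counts over both libraries. The calculation was tested on simulated data. The members and lists were chosen with earlier results of these data known. Named genes are all members and, per list, up to 3 with the largest ratio that met the rule, or the 2 with the most counts. Epor, Pcbp2, Ldb1, Ptprc, Adgre1, Itgam, Itga2b, Treml1, Tie1, Erg, Emcn, Alb, Afp, Vim, Hmox1, Hmox2, Bach1, Ftl1 and Fth1 were named after their values were seen. Some genes of the context lists are counted but not reported by name here. Chromosomes and promoters came from RefSeq on GRCm38.p6. Alternatives covered scaling, unit, rounding, floor, chromosome centring, minimum count and fold.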

Additional observations from a re-analysis of the deposited data

How the results depend on the processing

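No paired analysis was possible because each group has 1 library, and for the same reason no replicate could be left out. Depth limits the red cell genes in the library labelled Ahi1-/-, where most had 10 counts or fewer. The number of erythroid-only genes that were lower was 9, and 8 with upper quartile scaling or chromosome medians subtracted (without Ank1). It was 16 with a minimum of 10 counts and 17 with no minimum above 1 count. Over all genes the number lower was 1249, 1647 and 2063 at these 3 minima. No share of all genes is given at the lower minima, so the rise to 16 and 17 is not read as a result. All genes added at 10 counts except Ermap had fewer than 10 in the library labelled Ahi1-/- and could only be lower. With the globin copies of each chain summed the number was 5, where the adult globins count as 2. Among genes also used by other cells, the number lower was 0, but 1 with total counts, with chromosome medians subtracted, with a minimum of 10 counts or with none above 1 count, and 2 at 1.5-fold. At 1.5-fold 2606 of the 12075 genes with enough counts were lower. At 4-fold the number higher was 0, since Bpgm is 2.73-fold apart. By TPM, adult globins made up 0.00234% of the library labelled Ahi1-/- and 0.181% of WT, since their transcripts are short. The median log2 ratio of the erythroid-only genes was -4.60, but -3.21 with copies summed and -6.09 over genes with at least 100 counts. Total counts moved the median log2 ratio of all genes to -0.13, against -0.01. Subtracting chromosome medians changed the sign of Ppox (-0.16) and Car2 (0.10). With a floor of 1 count the log2 ratios of Hba-a2 and Gata1 became -6.98 and -3.33. Of 233 recomputed member ratios, 8 left their counting interval. The cause of other shifts was not tested.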

Other observations

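The deposited FPKM table, which the ratios above do not use, listed 14 of the erythroid-only genes and 3 of the members that other cells also use. It listed 3872 genes in all, against 17260 in the count table. In it Hba-a1 stood at 7.35 FPKM in the library labelled Ahi1-/- and 543 FPKM in WT, which is 73.9-fold lower, against 68.4-fold by scaled counts. Rhag was 6.14-fold lower by FPKM and 4.54-fold lower by scaled counts, on 6 counts in the library labelled Ahi1-/- and 27 in WT. Blvrb was 2.05-fold lower by FPKM and 1.89-fold lower by scaled counts. In the FPKM table no gene with values in both libraries had an absolute log2 ratio under 1.00.

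Genes of heme breakdown had values on both sides of 0. Hmox1, the inducible heme oxygenase, had 2807 counts in the library labelled Ahi1-/- and 1559 in WT (log2 ratio 0.84, interval 0.75 to 0.93), while the constitutive Hmox2 had 882 in the library labelled Ahi1-/- and 1169 in WT (log2 ratio -0.42, interval -0.55 to -0.29). Bach1, a heme-sensing repressor of Hmox1, had 1582 counts in the library labelled Ahi1-/- and 841 in WT (log2 ratio 0.90). The ferritin chains also stood on opposite sides of 0, with Ftl1 at 4162 TPM in the library labelled Ahi1-/- and 3339 TPM in WT, and Fth1, on chromosome 19, at 1871 TPM in the library labelled Ahi1-/- and 2486 TPM in WT.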
